A study of Saccharomyces cerevisiae with 7 samples.

Results

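Baker's yeast turns sugar into ethanol through glycolysis and alcoholic fermentation, and the 9 genes described here encode the enzymes at both ends of that route. They were chosen by gene identifier: HXK1 (YFR053C), HXK2 (YGL253W), GLK1 (YCL040W), PGI1 (YBR196C), PFK1 (YGR240C), PFK2 (YMR205C), PDC1 (YLR044C), PDC5 (YLR134W) and ADH1 (YOL086C). All 9 were listed in the transcript annotation, which holds 3000 protein-coding transcripts among 3196 in all. Polyadenylated RNA of log-phase Saccharomyces cerevisiae grown at 23 °C (the source and molecule fields name it so, whereas the titles of all 7 libraries call it total RNA) was folded in vitro in 10 mM magnesium and 100 mM KCl, then cut with RNase V1, which cleaves paired RNA (4 libraries), or nuclease S1, which cleaves unpaired RNA (3 libraries). The sources used here name no strain or genotype, and the enzyme used in the digestion, for 15 min, was the only difference that the labels give between the groups. What was analysed here is the annotation: where each transcript, coding region and untranslated region (UTR) starts and ends. Cleavage values were not analysed here, so no value below has a replicate error, no depth is known and no test between the nucleases was made.

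Glucose enters the pathway when a hexokinase adds a phosphate to it. HXK1 and HXK2 encode hexokinases that act on glucose and fructose, and GLK1 encodes a glucokinase that does not use fructose. PGI1 encodes the isomerase that makes fructose 6-phosphate, and PFK1 and PFK2 encode the alpha and beta subunits of phosphofructokinase, which commits the sugar to breakdown. At the far end, PDC1 and PDC5 encode pyruvate decarboxylases, which release carbon dioxide and make acetaldehyde, and ADH1 encodes the alcohol dehydrogenase that reduces acetaldehyde to ethanol and returns NAD+ to glycolysis. In cells on abundant glucose, HXK2, PDC1 and ADH1 are known as the main isozymes, whereas HXK1 and GLK1 are known for expression when glucose is scarce and PDC5 as the reserve decarboxylase.

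The start codons of the 9 mRNAs are shown because translation begins there and because the sites differ between isozymes. Each line runs from 12 nt before the start codon to the second codon, with the start codon in capitals. The sequence is the RefSeq R64 genome, found by gene name and read 5′ to 3′ on the gene's own strand, with R64 positions.
HXK1 (chr6:255044-255061, minus strand): tgaaaaaataagATGgtt
HXK2 (chr7:23923-23940, plus strand): taattaaataaaATGgtt
GLK1 (chr3:50826-50843, plus strand): atcatacacaagATGtca
PGI1 (chr2:613895-613912, minus strand): accagcctaaaaATGtcc
PFK1 (chr7:973729-973746, minus strand): atcatatcaaagATGcaa
PFK2 (chr13:674761-674778, minus strand): taaccatacgcaATGact
PDC1 (chr12:234076-234093, minus strand): aaatcaatcaaaATGtct
PDC5 (chr12:410711-410728, plus strand): aagaagaacaaaATGtct
ADH1 (chr15:160589-160606, minus strand): atctcatatacaATGtct

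An A stood 3 nt before the start codon in 8 of the 9, PFK2 being the exception. Of the 2979 mRNAs whose coding length was the same in R64, 1976 had an A at that place (66.3%, 95% Wilson interval 64.6 to 68.0%). PDC1, PDC5 and ADH1 shared the serine codon TCT after the start codon, which 276 of the 2979 mRNAs had (9.26%, 8.28 to 10.4%). HXK1 and HXK2 shared the valine codon GTT.

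The 9 transcripts had long coding regions. These had a median of 1665 nt, against 1080 nt over the 3000 mRNAs, and 8 of the 9 exceeded that overall median. UTRs together made up a median of 12.3% of the transcript, against 13.9% over the 2674 mRNAs with both UTRs, and only HXK1 (13.98%) exceeded that value. A long coding region lowers this share by itself: in nt, the median 3' UTR of the 9 was 148 nt, above the 106 nt over all mRNAs, and the median 5' UTR was 43 nt, below the 50 nt over all. None of the 9 had an annotated intron, and each had both UTRs. They lie on 7 chromosomes, with 3 genes read from the plus strand and 6 from the minus.

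**Figure D1:**
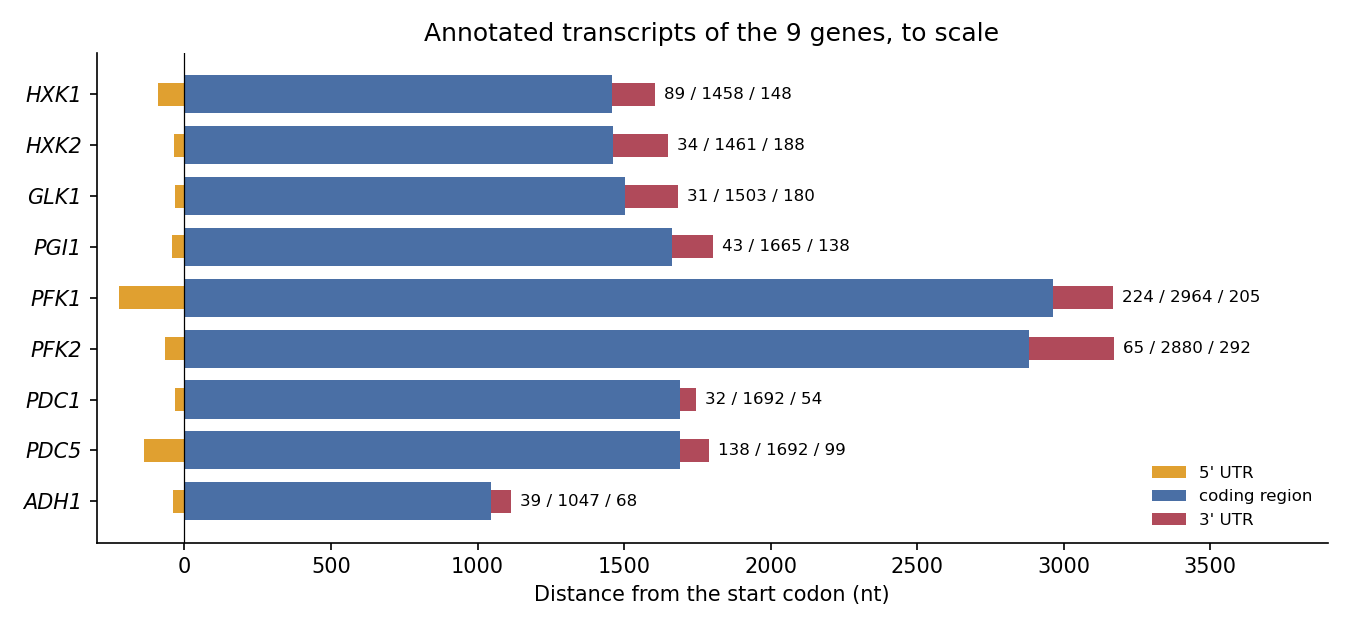
Annotated transcripts of the 9 genes drawn to scale from the start codon (horizontal axis, nt), with the 5' UTR left of 0, the coding region and the 3' UTR, and the 3 lengths in nt printed at the right. PFK1 and PFK2 are the longest, with coding regions of 2964 and 2880 nt, and the 5' UTRs of PFK1 (224 nt) and PDC5 (138 nt) stand out from the rest.

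Positions that follow are those of the deposited annotation, and the sources used here do not name its genome build. The HXK1 transcript lay on chromosome 6 at 253431 to 255125, on the minus strand. Its 5' UTR was 89 nt (255037 to 255125), its coding region 1458 nt and its 3' UTR 148 nt (253431 to 253578). HXK2 lay on chromosome 7 at 23901 to 25583, on the plus strand, with a 5' UTR of 34 nt, a coding region of 1461 nt and 188 nt of 3' UTR. Thus the coding regions of the hexokinases differed by 3 nt, while the 5' UTR of HXK1 was 2.62 times as long as that of HXK2.

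GLK1, on chromosome 3 at 50807 to 52520 on the plus strand, had a 5' UTR of 31 nt, a coding region of 1503 nt and 180 nt of 3' UTR. Its UTRs were close to those of HXK2 (3 nt shorter at the 5' end, 8 nt shorter at the 3' end), although its protein was the more distant one. Of all 2679 annotated 5' UTRs, 25.3% were shorter than that of GLK1 (95% Wilson interval 23.7 to 27.0%), 30.1% were shorter than that of HXK2 (28.4 to 31.9%) and 72.8% than that of HXK1 (71.1 to 74.5%). At the 3' end the 3 sugar kinases lay together, above 72.5% (HXK1), 82.7% (GLK1) and 84.5% (HXK2) of the 2882 annotated 3' UTRs.

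PGI1, on chromosome 2 at 612093 to 613938 on the minus strand, had a 5' UTR of 43 nt, a coding region of 1665 nt and 138 nt of 3' UTR. Its 5' UTR was the median of the 9 and exceeded 41.2% of all 5' UTRs.

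Phosphofructokinase had the longest transcripts of the 9. PFK1 lay on chromosome 7 at 970571 to 973963, with a 5' UTR of 224 nt (973740 to 973963), a coding region of 2964 nt and 205 nt of 3' UTR. PFK2 lay on chromosome 13 at 671594 to 674830, with a 5' UTR of 65 nt, a coding region of 2880 nt and 292 nt of 3' UTR (671594 to 671885). Both are on the minus strand, and their coding regions exceeded 95.0% and 94.4% of all.

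The subunits thus differed at both ends, in opposite directions. PFK1 had the longer 5' UTR, by 159 nt (3.45 times), which exceeded 94.6% of all 5' UTRs (93.6 to 95.3%). PFK2 had the longer 3' UTR, by 87 nt (1.42 times), which exceeded 95.8% of all 3' UTRs (95.0 to 96.4%).

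The decarboxylases encode proteins of equal length, and their coding regions were both 1692 nt. PDC1, on chromosome 12 at 232337 to 234114 on the minus strand, had 32 nt of 5' UTR and 54 nt of 3' UTR (232337 to 232390). PDC5, on chromosome 12 at 410586 to 412514 on the plus strand, had 138 nt of 5' UTR (410586 to 410723) and 99 nt of 3' UTR. The 5' UTR was 4.31 times as long in PDC5 as in PDC1, the widest ratio among 5 pairs within the 9 genes (the 3 sugar kinases with each other, PFK1 with PFK2, and PDC1 with PDC5), and the 3' UTR was 1.83 times as long. PDC1 gave the smallest share of its transcript to UTRs, 4.84%, a share lower than in all but 6.69% of mRNAs with both UTRs.

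ADH1, on chromosome 15 at 159480 to 160633 on the minus strand, was the shortest transcript of the 9 at 1154 nt. It had a 5' UTR of 39 nt, a coding region of 1047 nt and 68 nt of 3' UTR. The 3' UTRs of PDC1 and ADH1 were the shortest of the 9 and exceeded only 12.9% and 21.8% of all 3' UTRs.

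The order of the 5' UTRs was GLK1, PDC1, HXK2, ADH1, PGI1, PFK2, HXK1, PDC5 and PFK1, from 31 to 224 nt. The first 5 lay below the median of all mRNAs (50 nt), and the last 4 above it. The order of the 3' UTRs was PDC1, ADH1, PDC5, PGI1, HXK1, GLK1, HXK2, PFK1 and PFK2, from 54 to 292 nt. Within the 9, all 3 genes of fermentation lay below the overall median of 106 nt and all 6 genes of upper glycolysis above it. Of the 5 listed paralogues described below, the alcohol dehydrogenase genes ADH2, ADH3 and ADH5 also lay below it. The glucokinase paralogue EMI2 (93 nt) lay below it and ADH4 (175 nt) above it, so the split did not extend to these genes. The 3' UTR was the longer in 7 of the 9, and the exceptions were PFK1 and PDC5, whose 5' UTRs were the longest.

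**Figure D2:**
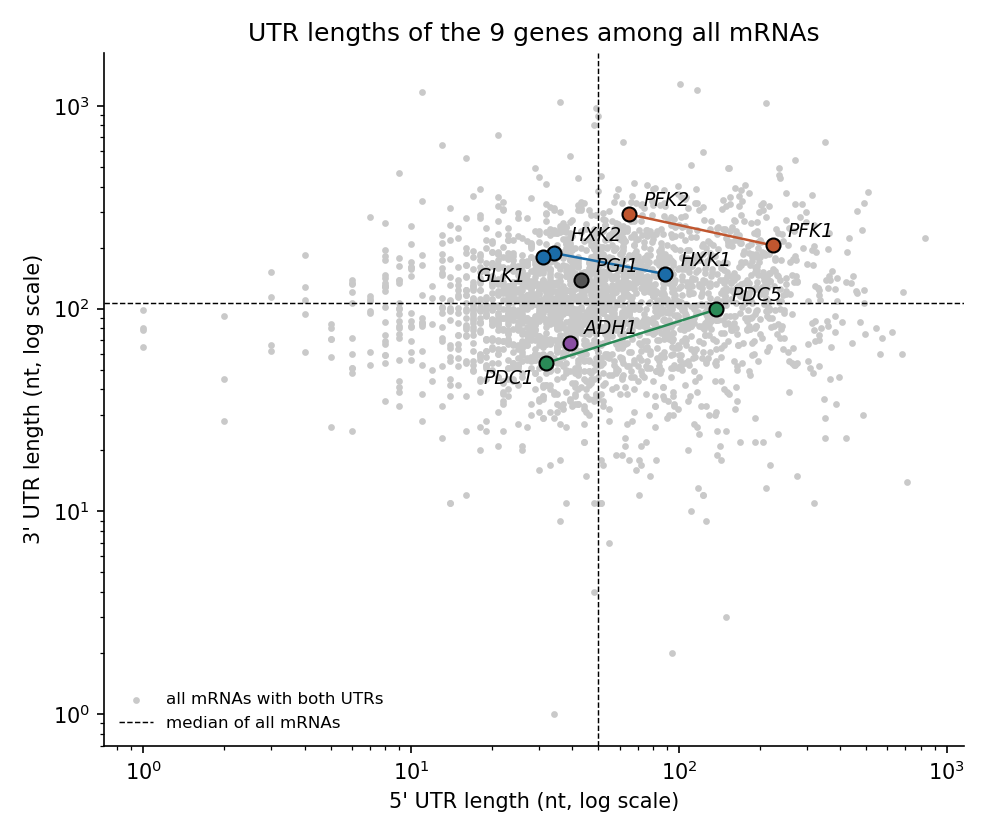
Lengths of the 5' UTR (horizontal, nt, log scale) and 3' UTR (vertical, nt, log scale) of the 9 genes, as labelled points, over the 2674 mRNAs with both UTRs in grey; dashed lines are the medians of all mRNAs, 50 and 106 nt, and solid lines join the pairs HXK1 and HXK2, PFK1 and PFK2, and PDC1 and PDC5. The paired genes lie apart mainly along the 5' UTR axis, by 2.62, 3.45 and 4.31 times.

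Differences at the ends did not follow the divergence of the proteins in a simple order. Translations of the R64 coding regions were aligned end to end, and identity is given over aligned residues. PDC1 and PDC5, with the widest 5' UTR ratio of those 5 pairs, were identical at 495 of 563 residues (87.9%). HXK1 and HXK2 were identical at 376 of 485 residues (77.5%), and PFK1 and PFK2 at 477 of 943 (50.6%). GLK1 was identical to HXK1 at 192 of 445 residues (43.1%) and to HXK2 at 189 of 443 (42.7%). The sources used here do not say how the authors assigned reads from such similar coding regions.

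Further isozymes extend the comparison. EMI2, a glucokinase paralogue identical to GLK1 at 73.1% of residues, had UTRs of 98 nt (5') and 93 nt (3'), against 31 and 180 nt in GLK1. ADH2 encodes the alcohol dehydrogenase that consumes ethanol, and its protein was identical to that of ADH1 at 324 of 348 residues (93.1%). Its 5' UTR of 48 nt was 9 nt longer than that of ADH1, but its 3' UTR was listed with 4 nt, against 68 nt in ADH1. The sources do not say how UTR ends were set, so whether this end is complete cannot be told. The mitochondrial ADH3 had UTRs of 65 and 96 nt, ADH5 of 63 and 100 nt, and ADH4, whose protein is of another family, of 267 and 175 nt. PDC6 encodes a minor decarboxylase whose R64 protein was 84.0% identical to that of PDC1 and 81.0% to that of PDC5. The annotation lists no transcript for PDC6, so it has no UTR lengths here.

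The rest of the pathway gives the setting. Lower glycolysis, from aldolase to pyruvate kinase, had 11 of 11 genes listed, with a median 5' UTR of 39 nt, against 43 nt for the 9 genes and 50 nt for all mRNAs. Of its 5' UTRs 3 lay above the overall median and 8 below, from FBA1, the aldolase gene (11 nt, as in GPM1), to the enolase gene ENO2 (122 nt). Its 3' UTRs had a median of 117 nt, against 148 nt for the 9 genes, and ran from FBA1 (28 nt) to PGK1, the phosphoglycerate kinase gene (167 nt).

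Enzymes on side branches had 8 of 11 genes listed, with 6 of the 8 5' UTRs above the overall median. They ran from PGM1, a phosphoglucomutase gene (20 nt), to PFK27 (206 nt), which encodes an enzyme that makes fructose 2,6-bisphosphate, the activator of phosphofructokinase. PFK27 also had the longest 3' UTR of that list (307 nt), and TPS1, the trehalose phosphate synthase gene, the shortest (106 nt). Of the hexose transporters 5 of 7 were listed and 4 had UTRs, with 5' UTRs from HXT2 (40 nt) to HXT3 (103 nt) and 3' UTRs from HXT1 (86 nt) to HXT4 (163 nt). Of the regulators 5 of 9 were listed. Their 5' UTRs ran from GCR1, the activator of glycolytic genes (20 nt), to REG1, a phosphatase subunit of glucose repression (318 nt), and their 3' UTRs from RAP1 (129 nt) to REG1 (257 nt).

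Neighbouring genes were compared next, because UTRs can reach into the next transcript. In the annotation, 2 of the 9 overlapped another transcript, both at the 3' end and both between 3' UTRs on opposite strands. The 3' UTR of HXK1 shared 95 nt (chromosome 6, 253431 to 253525) with that of RPN12, a proteasome subunit gene, which is 64.2% of the HXK1 3' UTR. The 3' UTR of HXK2 shared 83 nt (chromosome 7, 25501 to 25583) with that of RTG2, a gene of mitochondrial signalling, which is 44.1% of the HXK2 3' UTR. ADH1 and MHF1, which encodes a histone-fold protein, ended with 0 nt between them. In none of the 9 did a UTR reach coding sequence of another listed gene.

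These 3 convergent pairs are the ones in which the R64 neighbour of one of the 9 genes is also listed. There were 413 such convergent pairs in all. Transcripts overlapped in 222 of them (53.8%, 48.9 to 58.5%), the median overlap was 78 nt, and 2 pairs abutted with no nt between. The overlaps of HXK1 and HXK2 exceeded that median by 17 and 5 nt.

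**Figure D3:**
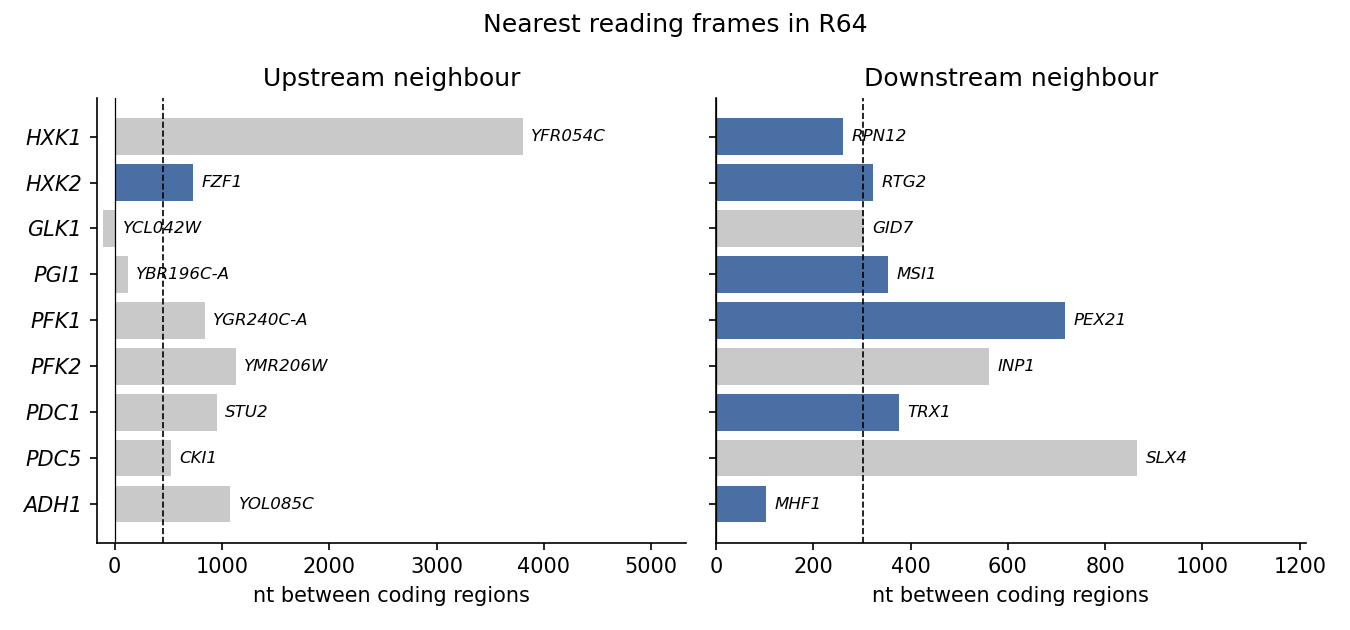
Distance in nt from the coding region of each of the 9 genes to the nearest coding region in R64 on its upstream (left) and downstream (right) side; the neighbour is named beside its bar, blue bars are neighbours listed in the deposited annotation, grey bars are neighbours not listed there, a bar left of 0 is an overlap, and dashed lines are the medians over mRNAs (446 and 302.5 nt). On each side 7 of the 9 bars pass the dashed line, and HXK1 has the longest upstream bar at 3805 nt.

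The distance to the nearest R64 coding region exceeded the median over mRNAs in 7 of the 9 on the upstream side (median 446 nt over 2999 mRNAs) and also in 7 of the 9 on the downstream side (302.5 nt over 2998). Upstream, HXK1 had 3805 nt to YFR054C, more than 99.6% of mRNAs. PFK2 had 1129 nt (above 91.0%), ADH1 1078 nt (above 89.8%), PDC1 955 nt to the microtubule gene STU2 (above 86.6%) and PFK1 842 nt (above 82.7%). HXK2 had 731 nt to FZF1, a transcription factor gene, and PDC5 529 nt to CKI1, the choline kinase gene.

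The exceptions were PGI1, with 123 nt to the small reading frame YBR196C-A, and GLK1, whose coding region overlapped the reading frame YCL042W by 106 nt. Of the nearest upstream reading frames, the annotation listed 1 of 9, that of FZF1, against 53.6% over all mRNAs. It listed 6 of 9 on the downstream side, against 52.5%. Distances between listed transcripts therefore span genes that are not listed: the nearest listed transcript upstream was 9615 nt away for PFK2, 9065 nt for HXK1, 7946 nt for ADH1, 6378 nt for PDC5 and 3864 nt for PDC1.

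Downstream, the exceptions were HXK1, with 262 nt to RPN12, and ADH1, with 102 nt to MHF1, shorter than in all but 7.14% of mRNAs. PDC5 had 866 nt to SLX4 (above 91.0%), and PFK1 717 nt to PEX21 (above 87.7%). PDC1 had 376 nt to TRX1, the thioredoxin gene, and PGI1 353 nt to MSI1, a chromatin assembly gene. PFK2 had 561 nt to INP1. HXK2, with 322 nt to RTG2 (above 54.4%), and GLK1, with 304 nt to GID7 (above 50.2%), lay close to the median. Between listed transcripts of the annotation, the downstream distance exceeded the median over mRNAs (472 nt) in only 3 of the 9. The median of the 9 was 288 nt there. Upstream, 7 of the 9 exceeded the median over mRNAs (729 nt) by that measure. With only protein-coding transcripts as neighbours, 6 of the 9 exceeded the median (815 nt), and PFK1, at 767 nt, did not.

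Within the 5' UTRs, none of the 9 held an ATG before the start codon. An upstream ATG can start a short reading frame and lower translation of the main one. Of 2663 mRNAs whose coding length was the same in R64, 406 held an ATG in their annotated 5' UTR (15.2%, 13.9 to 16.7%). Short 5' UTRs have little room for one, so the long ones are the more informative. Among the 144 5' UTRs at least as long as that of PFK1, 66 had no ATG (45.8%, 37.9 to 54.0%), and among the 403 at least as long as that of PDC5, 224 had none (55.6%, 50.7 to 60.4%).

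The share of A in the annotated 5' UTR exceeded the median over mRNAs (38.5%) in 8 of the 9 and equalled it in PFK2. PFK1 and PDC5 were near the middle, above 55.4% and 55.7% of mRNAs. It was 53.1% in PDC1, above 90.2% of mRNAs, 47.1% in HXK2 and 43.6% in ADH1. G was scarce in GLK1 (3.23%), ADH1 (5.13%), HXK2 (5.88%) and PDC1 (6.25%), and reached 16.9% in PFK2. In the last 50 nt before the start codon, whatever the UTR length, 6 of the 9 exceeded the median. PDC5 held 60.0% A there, above 97.8% of mRNAs, and PDC1 44.0%, while GLK1 stood above 46.2% of mRNAs and PGI1 and PFK2 above 37.5% each.

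Codon usage separated the 3 sugar kinases. The favoured codon of an amino acid was taken as the one most used in 136 cytosolic ribosomal protein genes, and the share of favoured codons was counted in 5945 R64 coding regions. The median gene had 38.4% and the median ribosomal protein gene 76.1%. PDC1 had 79.7% (433 of 543 codons), the place 34 from the top, ADH1 78.6% (place 56) and PDC5 74.2% (place 116). PGI1 had 72.0%, HXK2 70.8%, PFK2 65.3%, PFK1 63.0% and HXK1 59.6%, each above at least 94.6% of genes. GLK1 had 43.4% (210 of 484 codons), above 77.3% of genes.

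Among the sugar kinases the 95% Wilson intervals, which cover counting over codons, did not overlap: 66.5 to 74.7% in HXK2, 55.1 to 63.97% in HXK1 and 39.0 to 47.8% in GLK1. Those of PDC1 (76.2 to 82.9%) and PDC5 (70.3 to 77.7%) overlapped, as did those of PFK1 (59.9 to 66.0%) and PFK2 (62.2 to 68.3%). HXK2 and GLK1, which had nearly equal UTRs, therefore stood at different levels of codon usage. PDC1 and PDC5, with unlike UTRs, had overlapping intervals at places 34 and 116, and such an overlap does not show equal levels.

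**Figure D4:**
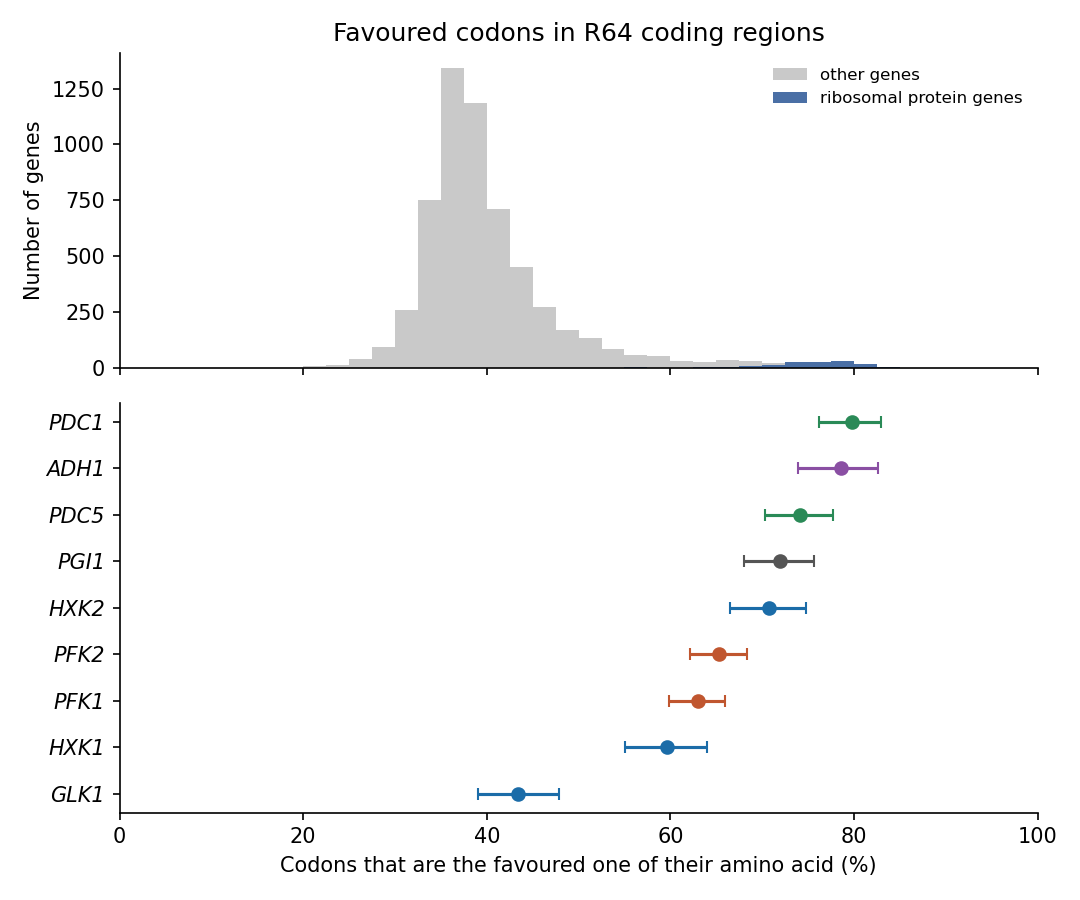
Share of codons that are the favoured one of their amino acid (horizontal, %). Above, overlaid histograms of 5945 R64 coding regions (vertical, number of genes), grey for other genes and blue for ribosomal protein genes; below, the 9 genes with 95% Wilson intervals over codons, from 43.4% in GLK1 to 79.7% in PDC1.

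The annotated transcript starts place the sequences upstream of the genes. The 800 nt before each start codon in R64 were searched on both strands, with overlapping matches counted, for 5 motifs. CTTCC is the core of the site of Gcr1, and ACCCNNNCA stands for that of Rap1, both known as activators of glycolytic genes in yeast. TATAAA was taken for the TATA box. The letters AGGGG are the stress response element, bound by Msn2 and Msn4, and the site of Reb1, a general regulatory factor, was searched as TTACCCG. A match is a run of letters, not a shown binding site, and the windows of HXK2, GLK1, PGI1 and PDC5 run into neighbouring reading frames.

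CTTCC was found upstream of 7 of the 9, against 82.1% of 6003 genes. ADH1 had 6 matches, a number that 1.55% of genes reach, HXK1, PGI1 and PDC1 had 4 each (12.6% of genes have as many), PFK2 3, PFK1 2 and GLK1 1, whereas HXK2 and PDC5 had 0. All 4 matches of PDC1 began between 624 and 580 nt before the start codon, with none nearer to it. In PDC5 that stretch lies beyond the 529 nt to CKI1. The contrast between PDC1 and PDC5 therefore rests on the far part of the window. ACCCNNNCA was found in 5 of the 9, against 20.5% of genes (19.5 to 21.5%). The matches in GLK1, PGI1, PFK2 and ADH1 lay upstream of the annotated transcript, each with a CTTCC starting 22 to 41 nt away. A CTTCC within 50 nt of ACCCNNNCA was present in 295 of the 6003 genes (4.91%, 4.40 to 5.49%). The match in HXK1 lay inside its 5' UTR, 36 nt before the start codon.

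These Rap1-type matches are shown with up to 8 nt on each side, the 9 matched letters in capitals, read on the gene's strand (in PGI1 the match is on the opposite strand, so its complement is read).
GLK1 (chr3:50756-50780, plus strand): aacccccaACCCCCCCAtcagtgcc
PGI1 (chr2:614267-614291, minus strand): tcacgatcTGGGTGGGTgtgggtgt
PFK2 (chr13:675278-675302, minus strand): tggcgtccACCCGTACAtccggaat
ADH1 (chr15:161240-161264, minus strand): gcaaccaaACCCATACAtcgggatt

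PFK2 and ADH1 thus differ at a single letter, between ACCC and TACA, 528 and 662 nt before their start codons. PDC1 held no ACCCNNNCA. The letters before its CTTCC 624 nt before the start codon begin like the Rap1 motif but miss its last letter. How many genes hold such a near match was not counted. The PDC1 stretch is shown with 8 nt on each side of CTTCC.
PDC1 (chr12:234693-234713, minus strand): acccatacCTTCCttaaaaac

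TATAAA was found in 6 of the 9, against 72.2% of genes. Between 40 and 140 nt upstream of the annotated transcript start, a window chosen after the files had been seen, it was found in 4 of 9. The share over 2663 mRNAs was 21.8% (20.3 to 23.4%), and with a window so chosen the difference is a description only. The 4 were HXK2, GLK1, PDC1 and ADH1. These 4 genes also had the 4 shortest 5' UTRs of the 9. The matches began 118 and 70 nt before the transcript start in HXK2, 73 nt in GLK1, 109 nt in PDC1 and 89 nt in ADH1. PFK2 had TATAAA 146 nt before its transcript start, just outside that window, and in PFK1 the letters lay within the 5' UTR. HXK1, PGI1 and PDC5 had none in the 800 nt. The matches nearest to the annotated starts on the gene's own strand are shown with 8 nt on each side, TATAAA in capitals.
HXK2 (chr7:23775-23796, plus strand): tacaaaacTATAAAaaagagta
GLK1 (chr3:50726-50747, plus strand): cgcgcccaTATAAAtatccgct
PDC1 (chr12:234209-234230, minus strand): aaaaaataTATAAAcaaggctc
ADH1 (chr15:160709-160730, minus strand): ctatcaagTATAAAtagacctg

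The stress response letters AGGGG were found in 6 of the 9, against 48.2% of genes. HXK1 had 5 matches, a number reached by 28 of the 6003 genes (0.466%, 0.323 to 0.673%), and HXK2 had 0. All 5 began between 592 and 337 nt before the start codon, so within 300 nt HXK1 had 0 as well. GLK1 and ADH1 had 4 each, reached by 1.37% of genes. PFK2 and PDC5 had 2, PDC1 had 1, and PGI1 and PFK1 had 0. TTACCCG was found in 0 of the 9, against 12.6% of genes. In GLK1, 3 of the 4 AGGGG matches crowd into the stretch from 182 to 167 nt before the start codon; the middle one is shown with 8 nt on each side.
GLK1 (chr3:50656-50676, plus strand): cccctttcAGGGGgcccccta

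**Figure D5:**
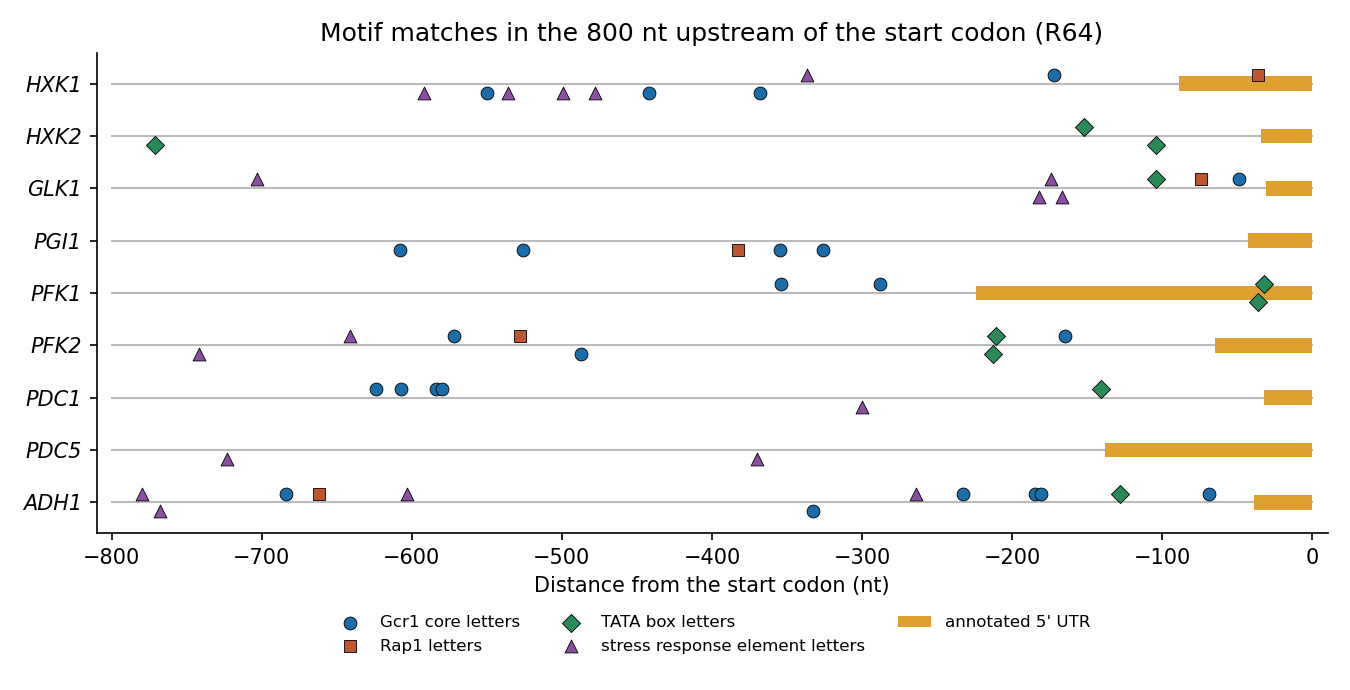
Positions of motif matches in the 800 nt upstream of the start codon of each of the 9 genes (horizontal, nt from the start codon, R64), with the annotated 5' UTR as an orange bar; symbols above a line are matches on the gene's strand and those below on the opposite strand. HXK1 carries 5 stress response matches and HXK2 none, and PDC1 carries 4 Gcr1 core matches and PDC5 none. All 4 in PDC1 begin between 624 and 580 nt before the start codon. In PDC5 that stretch lies beyond the 529 nt to CKI1.

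At the 3' end, 3 elements were searched on the gene's strand within the annotated 3' UTR: TATATA, the efficiency element of yeast polyadenylation, AATAAA, a positioning element, and TGTANATA, the site of the mRNA-binding protein Puf3. TATATA was found in HXK1, HXK2, GLK1, PGI1 and PFK1, that is in 5 of 9, against 49.5% of 2863 mRNAs (47.6 to 51.3%). Its last match ended 25 nt before the transcript end in HXK2, 23 nt in PFK1, 21 nt in HXK1 and 14 nt in PGI1, but 81 nt in GLK1. None was found in PFK2, PDC1, PDC5 or ADH1. In the 200 nt after the stop codon, whatever the UTR length, the letters were present in the same 5 of 9, against 54.2% of mRNAs (52.4 to 56.0%). The HXK2 match is shown as the example with a single match.
HXK2 (chr7:25545-25566, plus strand): taaatattTATATAgacaaaga

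TGTANATA was found in HXK1, 98 nt after the stop codon, and in GLK1, 92 nt after it, against 14.6% of mRNAs (13.4 to 15.9%). In GLK1 these letters contain its last TATATA match, which begins 94 nt after the stop codon. AATAAA was found within the annotated 3' UTR of PFK2 alone among the 9, against 22.6% of mRNAs. In 4 others these letters began just past the annotated end, by 1 nt in HXK1, 3 nt in PDC1, 4 nt in PDC5 and 6 nt in PGI1. Within 200 nt after the stop codon AATAAA was thus present in 5 of the 9, against 32.8% of mRNAs (31.1 to 34.5%). The 3' UTR of ADH1 was 85.3% A and T, above 98.5% of mRNAs, whose median was 71.8%, and the other 8 ranged from 72.8% in GLK1 to 78.3% in PGI1.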

How the data were processed

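The values used were genome positions. The authors deposited them, per the labels of the series, as an annotation with gene, chromosome, start, end and feature, counted from 1. The genome build, the aligner and the way UTR ends were set are not given in the sources. Start above end was read as the minus strand, lengths are end minus start plus 1, and gaps of at least 10 nt between exons were taken as introns. The depth of the 7 libraries is unknown, and nothing was tested between them.

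Sequence came from RefSeq R64 (protein sequences were translated from it). Its positions were not mixed with those of the annotation: coding regions were found by gene name, and annotated UTR lengths were counted from R64 start and stop codons. Coding lengths were equal in R64 for 2979 of 3000 mRNAs and for all 9 genes, of which 3 had the same positions. Symbols matched 2999 mRNAs.

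A rank is the share of mRNAs with a smaller value, with a 95% Wilson interval that covers counting over genes; no p-value was computed. Genes are not replicates. Proteins were aligned globally with Biopython 1.88 (BLOSUM62, gap opening 10, extension 0.5). Nucleotide folding used ViennaRNA 2.7.2 at 37 °C. Favoured codons were counted in coding regions of at least 150 nt. Scripts were tested on simulated annotations with known lengths and gaps.

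Members and lists were chosen with earlier results of these data known. The 3' elements, the 40 to 140 nt TATA window and the 50 nt spacing of motifs were chosen after the files had been seen. Named genes are the 9, their listed paralogues, the longest and shortest UTRs of each pathway list and the nearest neighbours of the 9. GPM1, which tied with FBA1, was named after its value was seen. Alternatives were other sets of reference mRNAs, neighbours, windows, gap costs and codon sets.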

Additional observations from a re-analysis of the deposited data

How the results depend on the processing

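The ranks of the UTR and coding lengths of the 9 genes were recomputed among mRNAs with both UTRs, mRNAs without introns and, for UTRs, those of at least 10 nt. The number of genes above the reference median did not change: it stayed at 4 for 5' UTRs, 6 for 3' UTRs and 8 for coding regions. The largest shift of a rank was 2.88 percentage points (coding length of ADH1, from 48.4% to 45.6% among mRNAs without introns). The number of the 9 with a Rap1-type match fell from 5 in 800 nt to 3 in 500 nt and 2 in 300 nt. Over all genes the share with such a match fell as well, from 20.5% to 13.1% and 7.51%. The 2 left in 300 nt were GLK1 and HXK1, and the match of HXK1 lay inside its 5' UTR. The number with a stress response match fell from 6 to 3 in 300 nt, while the share over all genes fell from 48.2% to 22.2%. GLK1, PDC1 and ADH1 remained, and HXK1, PFK2 and PDC5 did not. A shorter window holds fewer letters. The number with AATAAA went from 1 in the annotated 3' UTR to 5 in 200 nt after the stop codon, an alternative chosen after seeing the data. Downstream distances exceeded the median over mRNAs in 7 genes between R64 coding regions, but in 3 between listed transcripts. The ranks of predicted folding depended on the window, as given under the other observations. Favoured codons were the same 18 when taken from the 47 ribosomal protein genes without introns, and other gap costs moved no identity out of its Wilson interval. No paired analysis was possible because the analysed table holds no column of any library. Depth could not be weighed, and the annotation gives 1 start and 1 end per gene, so the spread of transcript ends within a gene is unknown.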

Other observations

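With the annotated 5' UTR as the window, predicted folding around the start codon was weaker than in most mRNAs for 7 of the 9 genes. The annotated 5' UTR and 30 nt of coding sequence were folded by computer, and the minimum free energy was divided by length; this is a prediction from the R64 sequence, not the measured cleavage. The median over 2663 mRNAs was -0.119 kcal/mol per nt. ADH1 had -0.0348, weaker than all but 5.78% of mRNAs, HXK2 -0.0469 (9.61%), GLK1 -0.0541 (11.98%) and PGI1 -0.0562 (12.8%). HXK1, PDC5 and PDC1 lay nearer to the middle, with 26.9%, 31.8% and 34.7% of mRNAs weaker.

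Phosphofructokinase was the exception in these annotated windows. PFK2 had -0.200 kcal/mol per nt, stronger than 94.4% of mRNAs, and PFK1 -0.143, stronger than 67.4%. PFK2 is also the gene of the 9 without an A 3 nt before the start codon and with the most G in its 5' UTR. With a fixed window of 30 nt on each side, the median over mRNAs was -0.0917 kcal/mol per nt, so the energy per nt depends on the window. PFK2 stayed at 90.9%, while PFK1 came to 47.5% and PDC1 to 56.1%. Again 7 of the 9 were weaker than the median, but with PFK1 in place of PDC1. HXK2 moved to 18.3%, GLK1 to 21.7% and HXK1 to 35.8%. In that window PGI1 (0.638%), ADH1 (1.35%) and PDC5 (2.03%) were among the weakest of all mRNAs, and PDC1 and PDC5 stood far apart.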
